A study of Mus musculus with 6 samples.

Results

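Cytochrome P450 genes of the mouse were described in RNA-seq libraries of the corpus neck, a zone of stomach glands, from Cldn18 knockout and wild-type mice. A gene was taken as a member when its symbol was Cyp followed by a family number, a subfamily letter and a gene number, without the pseudogene ending, which gave 95 genes of the 38720 genes in the table. For testing, 3 or more of the 6 libraries had to reach a normalized count of 10, and 35 of the 95 members passed, among 17432 genes of the whole table. No member reached that count in all 3 libraries of 1 group and in none of the other. Cyp17a1, Cyp2c29, Cyp2c66, Cyp2c70, Cyp4b1 and Cyp4f18 reached it in all 3 libraries of their higher group and in 1 of the other. Their higher group alone would have met the filter.

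Both groups, CLDN18-/- with 3 libraries and CLDN18+/+ with 3 libraries, carried the B6:129S5 strain background. Cldn18 encodes a tight junction protein, and the labels give no promoter or cell type to which its loss was limited. The sample labels put the mice at 7 weeks after birth while the design text of the series says days, so the age is uncertain between them. The tissue was cut from unfixed frozen sections by laser capture, and separate animals are not stated as the source of the libraries, so p-values measure only the spread between these libraries. The libraries held 37673283 to 52842813 reads assigned to genes.

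P450 enzymes are heme proteins of the endoplasmic reticulum or the mitochondrion that insert an oxygen atom into a substrate with electrons passed on by a reductase. Families Cyp1, Cyp2 and Cyp3 oxidise drugs, plant compounds and fatty acids, and family Cyp4 hydroxylates fatty acids and eicosanoids. Other families make or break down bile acids, steroid hormones, vitamin D and retinoic acid. The liver carries most of the foreign compound metabolism, while the epithelium of the gut holds its own set, including members of Cyp2c, Cyp2j and Cyp2s that oxidise arachidonic acid or other lipids.

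A pair of neighbouring genes, Cyp2c65 and Cyp2c66 on chromosome 19, moved in opposite directions in the knockout although they are near copies, so their start regions are shown first. The windows of 300 bases, most of them upstream of the start, are from RefSeq, build GRCm38.p6 (mm10), at chr19:39060756-39061055 and chr19:39113648-39113947, both on the plus strand. Capitals mark the bases that differ or face a gap in the alignment of the 2 windows. The alignment covered 271 bases, of which 256, or 94.5%, were identical, with 15 mismatches in either window and 29 bases facing a gap.
Cyp2c65: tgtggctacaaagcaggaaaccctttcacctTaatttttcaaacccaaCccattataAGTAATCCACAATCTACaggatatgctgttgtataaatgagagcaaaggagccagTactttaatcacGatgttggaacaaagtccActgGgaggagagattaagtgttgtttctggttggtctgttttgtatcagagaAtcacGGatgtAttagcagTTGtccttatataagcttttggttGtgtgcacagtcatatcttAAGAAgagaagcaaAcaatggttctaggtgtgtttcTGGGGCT
Cyp2c66: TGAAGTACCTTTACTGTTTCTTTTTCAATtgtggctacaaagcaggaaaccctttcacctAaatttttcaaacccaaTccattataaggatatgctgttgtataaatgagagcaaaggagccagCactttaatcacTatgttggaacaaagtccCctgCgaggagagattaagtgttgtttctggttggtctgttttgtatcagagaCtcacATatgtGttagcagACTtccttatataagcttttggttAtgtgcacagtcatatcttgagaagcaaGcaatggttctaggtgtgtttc
Over the coding sequence the pair was 96.59% identical across 1468 aligned bases. Of all stretches of 50 bases in their exons, 20.6% of those of Cyp2c65 and 19.5% of those of Cyp2c66 also occurred in another gene, so reads from such stretches cannot be assigned to 1 gene.

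Of the 35 members measured, 15 changed in the knockout (limma on log2(normalized count + 1), Benjamini-Hochberg adjusted p under 0.05 over all genes tested). This was 42.9% of the members, beside 44.7% of all genes tested, so the share of members that changed was close to that of the table as a whole. The members that changed were 6 higher and 9 lower in the knockout, beside 23.3% of all genes higher and 21.5% lower. The median size of the log2 difference without its sign was 0.87 over the members and 0.64 over all genes. The 2 sets differ in level, since both group means were under 100 for 22 of the 35 members and for 5027 of the 17432 genes. Sizes were not compared at equal level. With its sign, the median log2 difference of knockout minus wild-type was -0.45 over the members and -0.02 over all genes tested. After quantile normalization the medians were 0.07 over the members and 0.10 over all genes, so the sign of the members' median turned, and without knockout replicate 1 the members' median was -0.17. The values of the groups did not overlap for 19 members, with knockout above wild-type in 7 and below it in 12, beside 55.2% of all genes tested. Among the 13 members with a group mean of at least 100 normalized counts, 11 changed, 4 higher and 7 lower. This was 84.6% of them, beside 55.3% of all genes at that level. Among the 22 members below it 4 changed, or 18.2%, beside 18.7% of all genes there. Calls were thus more frequent at higher levels in the whole table too. On reads recovered from the values, edgeR called 5 members higher and 8 lower, beside 46.2% of all genes, and the authors' deposited table calls 4 members higher and 6 lower, beside 22.7% of its genes. Without knockout replicate 3 the members called higher numbered 3, and without the other libraries in turn they numbered 4 to 6.

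**Figure D1:**
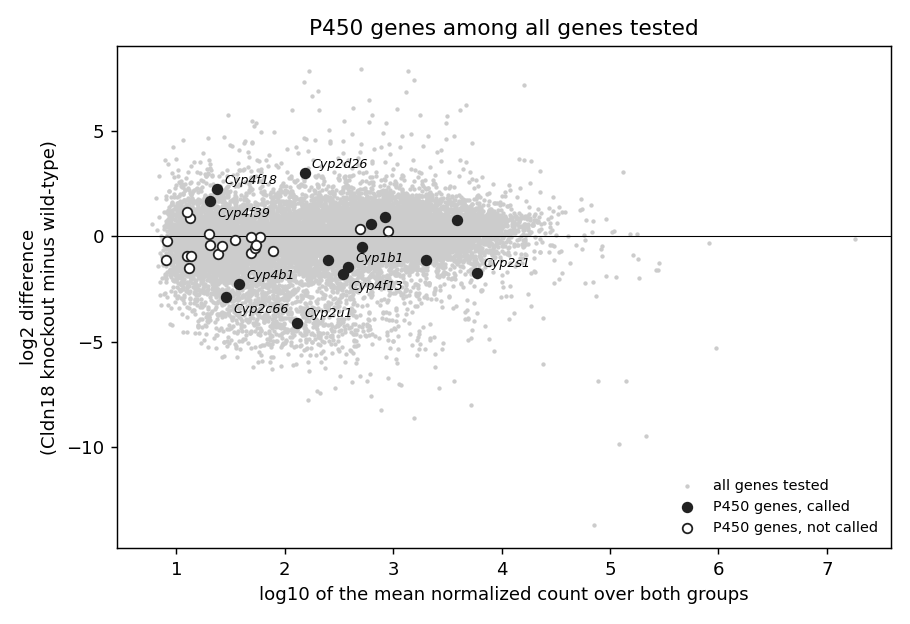
Log2 difference (Cldn18 knockout minus wild-type) of every gene tested against the log10 of its mean normalized count over both groups, with the 35 P450 members drawn over the 17432 genes tested. The members run across the spread of all genes, with Cyp2u1 lowest at -4.11 and Cyp2d26 highest at 2.99.

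**Figure D2:**
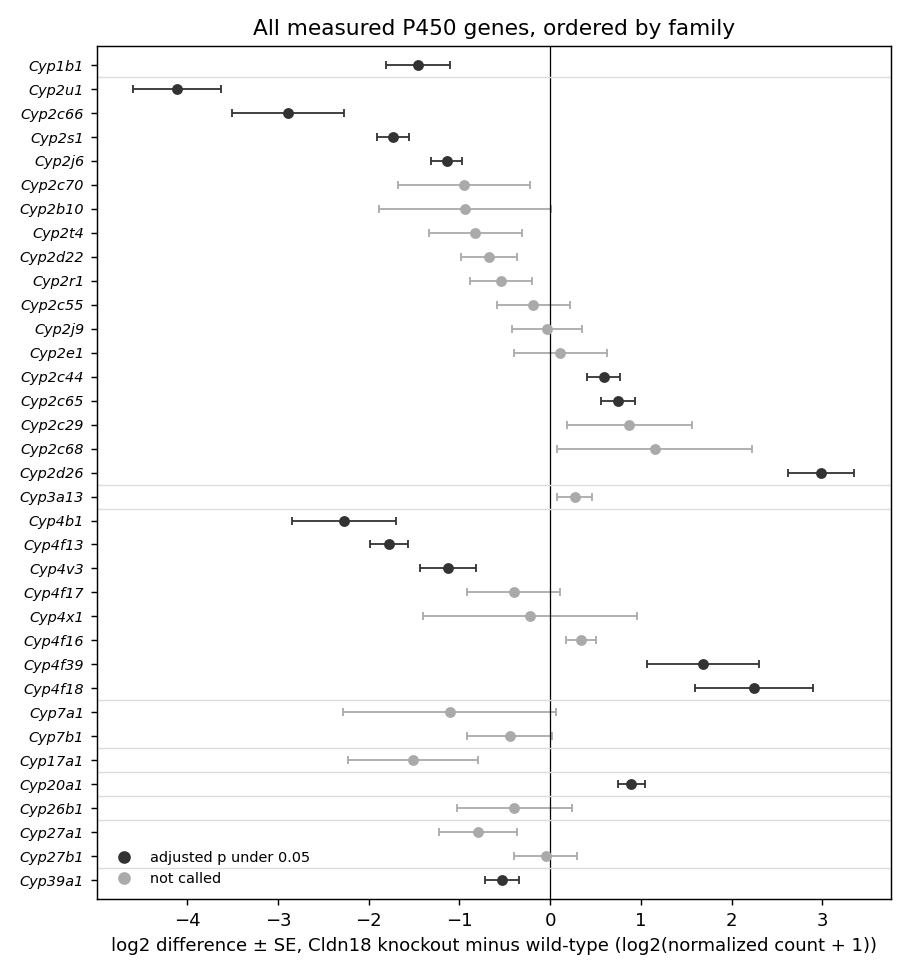
Log2 difference (Cldn18 knockout minus wild-type, log2(normalized count + 1)) of each measured P450 member with its standard error, ordered by family. Dark points mark the 15 members with an adjusted p under 0.05, of which 6 lie above 0 and 9 below.

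The wild-type libraries were not alike, and this touches some members. Summed markers of stratified squamous epithelium reached 8348 normalized counts at most and 687 at least in the wild-type libraries, with replicate 2 highest, against 613 to 748 in the knockout libraries. Of the 9 measured squamous markers, 4 stood at least 3-fold higher in wild-type replicate 2 and at least 1.5-fold higher in replicate 3 than in replicate 1. The same pattern held for 2 members, Cyp4f18 and Cyp4f39. Unlike the squamous sum, both were highest in wild-type replicate 3, and they had 24 and 28 reads over all wild-type libraries. The share of all genes with this pattern was not counted, and a link of these members to squamous tissue was not tested. For members whose call changed without wild-type replicates 2 and 3, the log2 difference against wild-type replicate 1 alone is given with each of them below. That comparison has 1 wild-type library, assumed to vary like the knockout libraries, so calls are fewer from the loss of replicates alone and a lost call does not show that a result rests on the omitted libraries. It called 4 members higher and 6 lower.

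Cyp2s1, an enzyme of airway and gut epithelium that lies outside the liver set, was the member with the highest level per kilobase of exon in wild-type mucosa and fell in the knockout. It had 2159, 2837 and 3196 normalized counts in the 3 knockout libraries, against 10599, 8040.2 and 8451 in the 3 wild-type libraries. There was no overlap, and even the highest knockout library lay well under the lowest wild-type one. The knockout mean was 30.2% of the wild-type mean, with a log2 difference of -1.73 ± 0.18 (SE) and an adjusted p of 3.47e-05 (limma). Cyp2s1 lies at chr7:25802475-25816913 on the minus strand in GENCODE models of mm10. An exon of Gm26707 overlaps it by 260 bases on the other strand, and that gene had at most 14.8 normalized counts in any library.

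Cyp2u1, a hydroxylase of long-chain fatty acids in humans, showed the lowest log2 difference of the members. The knockout libraries had 5.67, 25.9 and 14.4 normalized counts, against 284, 238 and 208 in the wild-type libraries. All knockout libraries were therefore far below all wild-type libraries, with a knockout mean at 6.29% of the wild-type mean. The log2 difference was -4.11 ± 0.49 (SE) with an adjusted p of 8.93e-05 (limma). Per kilobase, Cyp2u1 ranked 32 among the members in the knockout and 12 in wild-type. The gene lies at chr3:131288441-131303227 on the minus strand, and 548 bases of its exons overlap 4930534D22Rik on the other strand, which had between 0 and 14.7 normalized counts.

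Cyp2j6, a gut member of the arachidonic acid metabolising Cyp2j subfamily, was lower as well. Its normalized counts were 1177, 1136 and 1421 in knockout libraries, against 3397, 2520.4 and 2394 in wild-type libraries. Knockout and wild-type libraries were separate, and the knockout mean was 44.9% of the wild-type mean (log2 difference -1.14 ± 0.17 SE, limma adjusted p = 0.000361). Of the 7 Cyp2j genes 2 were measured, and the other, Cyp2j9, had 34.6 to 60.6 normalized counts in the knockout and 42.0 to 61.2 in wild-type, with overlapping groups.

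Of 15 Cyp2c genes, 7 were measured, 2 of them higher and 1 lower in the knockout. This was 42.9% of those measured, close to the 44.7% of all genes tested. Cyp2c65 had 4851, 5244 and 4359.8 normalized counts in knockout libraries, against 3656, 2145 and 2975 in wild-type libraries. Every knockout library lay above every wild-type one, and the log2 difference between the groups was 0.75 ± 0.19 (SE, limma adjusted p = 0.00835). Against wild-type replicate 1 alone the log2 difference of Cyp2c65 was 0.39, and it was not called (adjusted p = 0.0982). Its neighbour Cyp2c66 had 4.72, 13.3 and 2.88 normalized counts in knockout libraries, against 56.3, 38.3 and 56.3 in wild-type libraries. The groups again did not overlap, in the opposite direction (log2 difference -2.89 ± 0.61 SE, limma adjusted p = 0.00324). The 2 genes lie in tandem at chr19:39061015-39093944 and chr19:39113898-39187072, both on the plus strand, and their start windows printed above differ at scattered bases and at the stretches where 1 window has bases that the other lacks.

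Cyp2c44, listed as Cyp2c23 in current annotation and known as an arachidonic acid epoxygenase of mouse kidney, was the other Cyp2c gene that was higher. It had 612, 853 and 806 normalized counts in knockout libraries, against 564, 487 and 452 in wild-type libraries. These groups lay close together without overlap, and the log2 difference was 0.59 ± 0.18 (SE, limma adjusted p = 0.0209). The call was lost without wild-type replicate 3 (adjusted p = 0.0751), knockout replicate 2 (0.0898) or knockout replicate 3 (0.0819). Against wild-type replicate 1 alone the log2 difference was 0.41, not called (adjusted p = 0.203). The remaining Cyp2c genes, Cyp2c29, Cyp2c55, Cyp2c68 and Cyp2c70, had at most 42.0 normalized counts in each library and overlapped between groups.

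Cyp2d26 showed the highest log2 difference of the members. It had 276, 287 and 244 normalized counts in knockout libraries, against 29.4, 56.8 and 21.4 in wild-type libraries. The groups were far apart, with the knockout mean 7.51-fold the wild-type mean and a log2 difference of 2.99 ± 0.36 (SE, limma adjusted p = 0.000109). Its relative Cyp2d22, whose coding sequence is 79.46% identical, had 53.8, 52.5 and 75.9 normalized counts in knockout libraries, against 104, 90.1 and 95.2 in wild-type libraries. These groups did not overlap either, with knockout below wild-type, but the log2 difference of -0.68 ± 0.31 (SE) had an adjusted p of 0.0977 (limma) and was not called. The other 6 Cyp2d genes were below the filter.

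The start window of Cyp2d26 (RefSeq, GRCm38.p6, chr15:82794196-82794495, minus strand) is printed because the gene had the highest difference. Capitals mark a match to the HNF1 half-site GTTAAT, searched on both strands.
Cyp2d26: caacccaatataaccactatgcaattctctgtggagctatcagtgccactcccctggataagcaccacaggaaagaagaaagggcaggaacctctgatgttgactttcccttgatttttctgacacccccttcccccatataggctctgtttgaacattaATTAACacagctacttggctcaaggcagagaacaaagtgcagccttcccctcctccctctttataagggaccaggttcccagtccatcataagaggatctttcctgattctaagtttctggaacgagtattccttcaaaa
Of the 26 measured members with a RefSeq window, 2 held that half-site, Cyp2d26 and Cyp2c68, and 7.10% of the 32851 windows in the table did. A nuclear receptor half-site, AAGGTCA, was in 1 of the 26 windows and in 4.72% of all windows. A match of letters describes the window only.

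Cyp1b1, an aryl hydrocarbon receptor target that oxidises estradiol and polycyclic hydrocarbons, was the single Cyp1 gene of 3 to pass the filter. It had 144, 156 and 318 normalized counts in knockout libraries, against 379, 849.6 and 464 in wild-type libraries. No overlap was seen, although knockout replicate 3 came close to wild-type replicate 1, and wild-type replicate 2 stood above the rest. The log2 difference was -1.46 ± 0.35 (SE, limma adjusted p = 0.00676), and against wild-type replicate 1 alone it was -0.97, not called (adjusted p = 0.129). The authors' deposited table gives an adjusted p of 0.0897 for Cyp1b1. Its start window (RefSeq, GRCm38.p6, chr17:79715012-79715311, minus strand) is shown with matches to the dioxin response core GCGTG on either strand in capitals, since the receptor that binds this core is known to control the gene.
Cyp1b1: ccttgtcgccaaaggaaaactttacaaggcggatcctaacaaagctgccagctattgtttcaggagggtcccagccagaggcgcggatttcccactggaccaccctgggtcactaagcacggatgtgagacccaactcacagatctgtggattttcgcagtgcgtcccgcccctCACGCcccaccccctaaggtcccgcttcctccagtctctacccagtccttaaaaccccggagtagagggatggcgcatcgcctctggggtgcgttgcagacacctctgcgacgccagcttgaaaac
The core was found in 9 of the 26 member windows and in 32.4% of all windows.

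Cyp3a13, the Cyp3a gene known from mouse intestine, was the single measured gene of 9 in its subfamily and was not called. It had 797, 935 and 1217 normalized counts in knockout libraries, against 963, 708 and 761 in wild-type libraries, with overlapping groups (log2 difference 0.27 ± 0.19 SE, limma adjusted p = 0.281). None of the 4 Cyp2a genes and 1 of the 5 Cyp2b genes was measured, subfamilies best known from liver. Cyp2b10, Cyp2e1 and Cyp2t4 had at most 35.9 normalized counts and overlapped between groups.

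**Figure D3:**
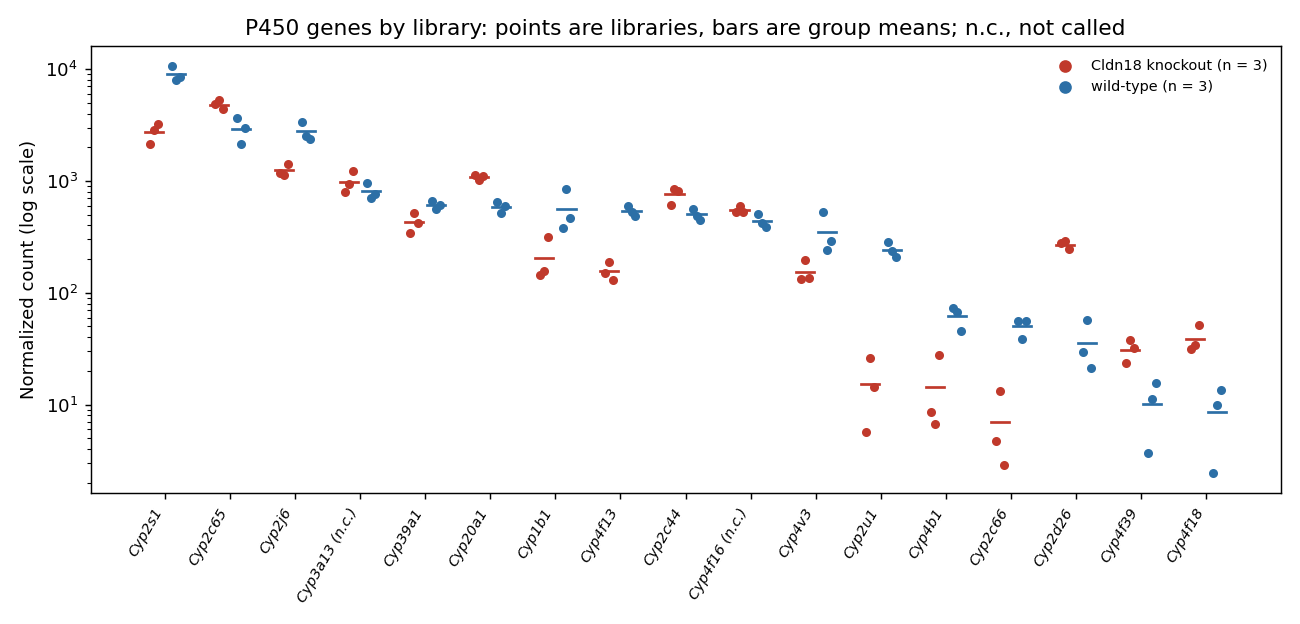
Normalized count (log scale) of the 15 P450 members that changed and of Cyp3a13 and Cyp4f16, which were not called (n.c.), in each of the 3 Cldn18 knockout and 3 wild-type libraries, with points for libraries and bars for group means. Cyp2s1 and Cyp2u1 lie wholly lower in the knockout libraries, and Cyp2d26 and Cyp20a1 wholly higher.

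Of the 17 Cyp4 genes, which hydroxylate fatty acids and eicosanoids at the end of the chain, 8 were measured. In the knockout 2 were higher and 3 lower, or 62.5% of those measured, beside 44.7% of all genes tested. Cyp4f13 had 149, 189.9 and 131 normalized counts in knockout libraries, against 591, 522 and 488 in wild-type libraries. All knockout libraries lay below all wild-type ones, and the log2 difference was -1.78 ± 0.21 (SE, limma adjusted p = 8.01e-05). Cyp4v3, the mouse counterpart of the human retinal dystrophy gene CYP4V2, had 132, 195 and 135 normalized counts in knockout libraries, against 524, 239.6 and 290.3 in wild-type libraries. Its groups did not overlap, and wild-type replicate 1 stood apart from the other wild-type libraries (log2 difference -1.13 ± 0.31 SE, limma adjusted p = 0.0120). The authors' deposited table gives Cyp4v3 an adjusted p of 0.153, and its exons overlap Gm45753 on the same strand by 313 bases. Cyp4b1, which activates the lung toxin ipomeanol in rodents, had 8.50, 6.65 and 27.9 normalized counts in knockout libraries, against 73.4, 66.7 and 45.6 in wild-type libraries. Knockout replicate 3 was the highest of its group but still below every wild-type library (log2 difference -2.27 ± 0.57 SE, limma adjusted p = 0.00826). Without knockout replicate 3 the log2 difference of Cyp4b1 was -2.86. Against wild-type replicate 1 alone it was -2.54, no smaller in size than with all libraries, and was not called with 1 wild-type library (adjusted p = 0.0580).

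The genes called higher in family Cyp4 were both low in wild-type. Cyp4f18, an enzyme of mouse neutrophils that hydroxylates leukotriene B4, had 31.2, 34.0 and 50.9 normalized counts in knockout libraries, against 2.45, 9.88 and 13.6 in wild-type libraries. Every knockout library was above every wild-type one (log2 difference 2.25 ± 0.65 SE, limma adjusted p = 0.0166), but the adjusted p was 0.0745 without knockout replicate 3, and the log2 difference was 1.62 without wild-type replicate 1 and 3.49 against that library alone. Macrophage markers were higher for 4 of 7 measured genes and lower for 0, beside 23.3% of all genes tested higher and 21.5% lower. Their sums were 4478 to 8297 normalized counts in knockout libraries against 2003 to 3217 in wild-type libraries. The part of these markers' cells in the Cyp4f18 result was not tested. Exons of Zfp961 on the other strand overlap Cyp4f18 by 181 bases, and Zfp961 had 464 to 550.4 normalized counts in knockout libraries against 657 to 717 in wild-type libraries. Cyp4f39, the mouse counterpart of the human skin barrier gene CYP4F22, had 23.6, 37.7 and 31.7 normalized counts in knockout libraries, against 3.67, 11.1 and 15.5 in wild-type libraries. Again no values overlapped, but the log2 difference of 1.69 ± 0.62 (SE) had an adjusted p of 0.0472 (limma), close to the threshold. Leaving out wild-type replicate 1 (adjusted p = 0.107) or knockout replicates 1 (0.0824), 2 (0.144) or 3 (0.120) in turn ended that call, and against wild-type replicate 1 alone the log2 difference was 2.75. Cyp4f16 had 527, 592 and 528 normalized counts in knockout libraries, against 502, 421 and 385 in wild-type libraries, without overlap and without a call (log2 difference 0.34 ± 0.17 SE, limma adjusted p = 0.132). Cyp4f17 and Cyp4x1 overlapped between groups. None of the 6 Cyp4a genes, known as targets of the fatty acid receptor PPAR alpha in liver and kidney, passed the filter.

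Families that make or break down bile acids, steroid hormones, vitamin D and retinoic acid changed in 1 of 7 measured genes. This stood beside 44.7% of all genes tested. Apart from the changed gene, Cyp39a1, the 7 had group means under 100 normalized counts, where 18.7% of all genes changed. Cyp39a1, an oxysterol hydroxylase of the bile acid pathway, had 342, 515 and 420.02 normalized counts in knockout libraries, against 666, 558 and 603 in wild-type libraries. Knockout replicate 2 came nearest to wild-type, without overlap (log2 difference -0.53 ± 0.19 SE, limma adjusted p = 0.0402), but leaving out wild-type replicates 1 (adjusted p = 0.0825) or 3 (0.0904), or knockout replicates 1 (0.180) or 3 (0.0970), ended the call. Against wild-type replicate 1 alone the log2 difference was -0.67, no smaller in size than with all libraries, and was not called with 1 wild-type library (adjusted p = 0.0832). The vitamin D 1-hydroxylase gene Cyp27b1 had 46.1 to 68.0 normalized counts in the knockout and 51.5 to 73.4 in wild-type, with overlapping groups. Cyp27a1, Cyp7a1 and Cyp7b1 of bile acid synthesis and the retinoic acid hydroxylase Cyp26b1 also overlapped. The vitamin D hydroxylase Cyp2r1, placed with family Cyp2, had 36.8 to 51.0 normalized counts in the knockout and 59.2 to 64.9 in wild-type, without overlap but with an adjusted p of 0.222 (limma), or 0.0488 without a mean trend in the variance. The steroid hydroxylase Cyp17a1 had 2.88 to 10.3 in the knockout and 11.1 to 33.0 in wild-type, also without overlap and with an adjusted p of 0.112 (limma).

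Cyp20a1, an enzyme without a known substrate, was higher in the knockout. It had 1129.5, 1021 and 1107 normalized counts in knockout libraries, against 641, 515 and 602 in wild-type libraries. Knockout libraries were all above wild-type libraries, and the log2 difference was 0.89 ± 0.15 (SE, limma adjusted p = 0.000796).

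The members with values at the edge of the filter are given for description. Cyp2b10, Cyp4x1 and Cyp7a1 reached 10 normalized counts in exactly 3 libraries. Just outside, with 2 libraries, Cyp11a1 had 4.90 to 26.9, Cyp2c67 had 0 to 17.1, Cyp2w1 had 2.22 to 14.8, Cyp4a32 had 0 to 19.8 and Cyp4f14 had 0 to 13.3. The 60 members below the filter reached at most 26.9 in any library, and each of them had at least 1 read in some library.

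Summed over all 95 genes, P450 normalized counts were 12983, 14870.1 and 14697 in knockout libraries, against 23878, 18183 and 19356 in wild-type libraries. On this scale, where long transcripts weigh more, all knockout sums lay below all wild-type sums, at 69.28% of them on average. Per kilobase of exon the sums were 5144, 5777 and 5454 in knockout libraries, against 7076.5, 5233 and 5798 in wild-type libraries. These overlapped, with the knockout mean at 90.43% of the wild-type mean. Exon length was the union of all exons in a gene's GENCODE models. It was 4938 bases for Cyp2s1, 3605 for Cyp2j6 and 1928 for Cyp2c65. Values per kilobase depend on this choice, and other lengths were not tried. The composition per kilobase differed. Per kilobase of exon, Cyp2c65 took 48.9%, 47.1% and 41.5% of the P450 total in knockout libraries, against 26.8%, 21.3% and 26.6% in wild-type libraries. Cyp2s1 took 8.50%, 9.95% and 11.9% in knockout libraries, against 30.3%, 31.1% and 29.5% in wild-type libraries. The 2 genes thus exchanged rank, with Cyp2c65 at 2499 and Cyp2s1 at 553 normalized counts per kilobase in the knockout, against 1517 and 1829 in wild-type. Cyp2j6 took 6.34% ± 0.88 (SD, n = 3) in the knockout and 12.7% ± 1.1 (SD, n = 3) in wild-type. Cyp20a1 took 8.74% ± 0.94 (SD, n = 3) in the knockout and 4.27% ± 0.29 (SD, n = 3) in wild-type. In all libraries Cyp2s1, Cyp2c65 and Cyp2j6 together held most of the total, with 60.5% to 63.8% in the knockout and 65.7% to 70.5% in wild-type.

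**Figure D4:**
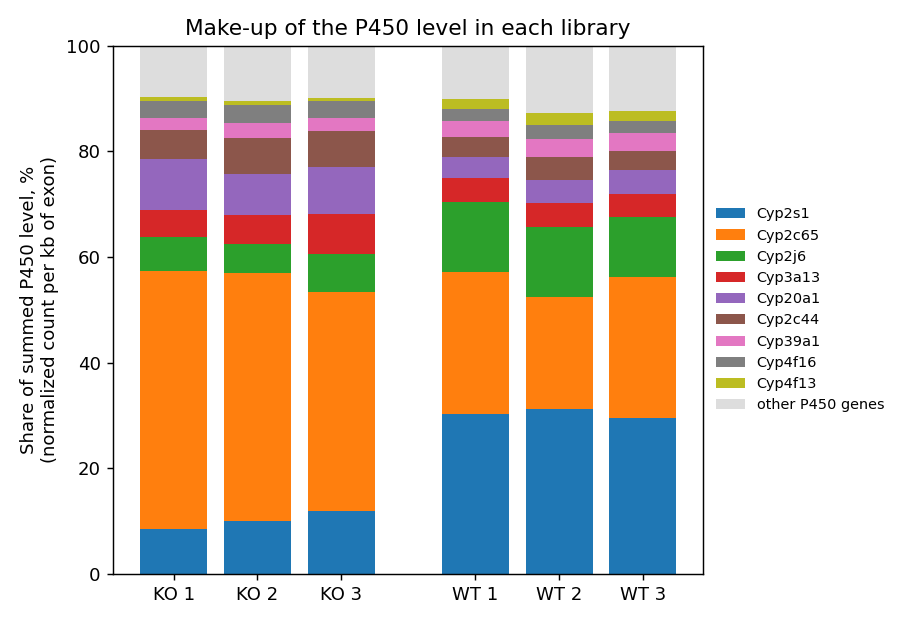
Share of the summed P450 normalized counts per kilobase of exon (percent, stacked to 100) taken by the leading members in each Cldn18 knockout and wild-type library. Cyp2c65 takes the widest band in the knockout libraries and Cyp2s1 in the wild-type libraries.

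Markers of other cell types moved between the groups as well. Their counts stand beside 23.3% of all genes tested higher and 21.5% lower. Of 12 measured parietal cell markers 0 were higher and 10 lower in the knockout, with sums of 36696 to 46281 normalized counts in knockout libraries against 454917 to 591129 in wild-type libraries. Of 7 measured chief cell markers 0 were higher and 6 lower, with sums of 39965 to 74366 in knockout libraries against 1815290 to 3011660 in wild-type libraries. In bulk tissue, fewer cells of a type and less RNA per cell cannot be told apart, and the part of these cells in the P450 results was not tested. All 6 measured endothelial markers were lower, and 4 of 8 fibroblast markers were higher with 0 lower. Hepatocyte markers were higher for 1 and lower for 2 of 7 measured genes, with sums of 1050.2 to 1703 in knockout libraries against 40559 to 59605 in wild-type libraries, mostly from the apolipoprotein gene Apoa1. Serpina1a of the same list had at most 5.67 normalized counts in any library. It is 1 gene of that list, and whether hepatocyte RNA was present was not tested. Enterocyte markers were higher for 1 and lower for 3 of 9, adipocyte markers higher for 1 and lower for 1 of 6, and squamous markers higher for 1 and lower for 4 of 9.

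Genes that work with P450 enzymes were grouped by function. Of 10 measured genes of electron donors and P450 binding proteins, 3 were higher and 2 lower, beside 23.3% of all genes tested higher and 21.5% lower. The median log2 difference was 0.27. Cyb5r1, a cytochrome b5 reductase gene, and Cyb5b, a cytochrome b5 gene, were higher by 0.72 ± 0.20 and 0.55 ± 0.15 on the log2 scale (SE, limma adjusted p = 0.0133 and 0.0117). Cyb5r3, another cytochrome b5 reductase gene, overlapped between groups without a call (log2 difference 0.24 ± 0.15 SE, limma adjusted p = 0.209). Fdxr, the mitochondrial ferredoxin reductase, and the P450 binding protein gene Pgrmc1 fell by 0.77 ± 0.24 and 0.52 ± 0.14 (SE, limma adjusted p = 0.0252 and 0.0109). The general P450 reductase Por had 3207, 2808 and 4932 normalized counts in knockout libraries, against 3327, 3159 and 2327 in wild-type libraries, with overlap and no call (adjusted p = 0.312, limma). Cyb5r1 and Cyb5b lost their calls without knockout replicate 3 (adjusted p = 0.0506 and 0.0553), and Pgrmc1 without knockout replicate 1 (0.0582). Fdxr lost its call without wild-type replicate 2 or 3 or knockout replicate 2 or 3 (0.0689 to 0.0909). Without knockout replicate 3 none of the 10 genes was called higher, and without each library except wild-type replicate 1 a single gene was called lower.

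Of 13 heme genes, 2 were higher and 5 lower in the knockout, beside 23.3% of all genes tested higher and 21.5% lower. Hmox1, which breaks down heme, had 370.2, 237 and 680.5 normalized counts in knockout libraries, against 68.5, 69.2 and 86.4 in wild-type libraries (log2 difference 2.38 ± 0.35 SE, limma adjusted p = 0.000376). No values overlapped, and knockout replicate 3 was the highest. Alas2, the erythroid form of the first heme enzyme, fell by 1.85 ± 0.51 (SE), Urod of heme synthesis by 1.61 ± 0.17 and the second heme oxygenase gene Hmox2 by 1.01 ± 0.16 on the log2 scale (limma adjusted p = 0.0123, 4.57e-05 and 0.000596). The call of Alas2 was lost without wild-type replicate 3 (adjusted p = 0.0649). Alas1, the other form of the first heme enzyme, was called higher besides Hmox1. It had 2534, 2477 and 3512 normalized counts in knockout libraries, against 2351, 1993 and 1818 in wild-type libraries. The groups did not overlap, and the adjusted p was close to the threshold (log2 difference 0.46 ± 0.17 SE, limma adjusted p = 0.0495). Called higher were 4 heme genes without wild-type replicate 1 and 1 gene without each of the other libraries in turn.

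Of 13 receptors and their partners that control P450 genes in liver and gut, 1 was higher and 2 were lower. This stood beside 23.3% of all genes tested higher and 21.5% lower. Ppara, the fatty acid receptor, had 33.1, 37.7 and 27.9 normalized counts in knockout libraries, against 356, 312 and 253 in wild-type libraries (log2 difference -3.18 ± 0.28 SE, limma adjusted p = 1.38e-05). The groups were far apart. Genes of subfamily Cyp4a, its known liver targets, were below the filter. Nr1h4, the bile acid receptor, had 368, 332 and 474 normalized counts in knockout libraries, against 225, 162 and 183 in wild-type libraries, without overlap (log2 difference 1.04 ± 0.22 SE, limma adjusted p = 0.00327), and against wild-type replicate 1 alone the log2 difference was 0.78. Tiparp, a target and repressor of the aryl hydrocarbon receptor, had 438, 380.5 and 337 in knockout libraries, against 426, 1807 and 1007 in wild-type libraries. The groups overlapped, and wild-type replicates 2 and 3 were the high ones (log2 difference -1.26 ± 0.41 SE, limma adjusted p = 0.0271). Leaving out any library but wild-type replicate 1 ended that call, with adjusted p-values of 0.0514 to 0.0990. With wild-type replicate 1 as the only wild-type library, the log2 difference of Tiparp was -0.15. Ahr and the xenobiotic receptor Nr1i2 overlapped between groups.

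Of 8 measured epoxide hydrolases and flavin monooxygenases, 0 were higher and 4 lower, beside 23.3% of all genes tested higher and 21.5% lower. The median log2 difference was -1.57. Ephx2, the soluble epoxide hydrolase that acts on the epoxides made by Cyp2c and Cyp2j enzymes, had 364, 306 and 292 normalized counts in knockout libraries, against 2108, 1769.6 and 1783 in wild-type libraries. The groups did not overlap (log2 difference -2.56 ± 0.16 SE, limma adjusted p = 1.24e-06). Fmo2 and Fmo5, flavin enzymes that oxidise nitrogen and sulfur compounds, had log2 differences of -2.05 ± 0.34 and -1.81 ± 0.29 (SE, limma adjusted p = 0.000829 and 0.000655). Their relative Fmo1 had 11.3, 8.13 and 16.3 normalized counts in knockout libraries, against 30.6, 67.9 and 56.3 in wild-type libraries, without overlap (limma adjusted p = 0.00922). Against wild-type replicate 1 alone the log2 difference of Fmo1 was -1.34 and was not called (adjusted p = 0.198).

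Of 12 genes of retinoic acid supply and response, 5 were higher and 6 lower, beside 23.3% of all genes tested higher and 21.5% lower. The only measured Cyp26 gene, Cyp26b1, was not called. It had 9.44 to 35.0 normalized counts over both groups, with a log2 difference of -0.39 ± 0.64 (SE). Aldh1a1 and Aldh1a2, which make retinoic acid, fell by 2.06 ± 0.16 and 1.95 ± 0.47 (log2, SE, limma adjusted p = 5.54e-06 and 0.00652), while Aldh1a3, which makes it too, was higher by 1.25 ± 0.24 (limma adjusted p = 0.00159). Aldh1a3 had 637, 551 and 954 normalized counts in knockout libraries, against 328, 323.5 and 232 in wild-type libraries, without overlap. Also called higher were Rdh10, Rdh11, Dhrs9 and Rarg, with log2 differences of 1.04 to 1.87, and Rdh10 overlapped between groups. The retinoic acid binding protein gene Crabp1 had 3.78, 14.8 and 3.84 normalized counts in knockout libraries, against 41.6, 449 and 216 in wild-type libraries, and Crabp2 showed 1.89, 8.13 and 1.92 in knockout libraries, against 29.4, 298 and 93.2 in wild-type libraries. Both had the pattern of highest values in wild-type replicates 2 and 3. Their log2 differences were -4.49 ± 0.82 and -4.48 ± 0.83 (SE, limma adjusted p = 0.00131 and 0.00149). Without wild-type replicate 1 they were -5.45 and -5.30, and without replicate 2 they were -3.75 and -3.65. Against wild-type replicate 1 alone they were -2.58 and -2.84, neither called with 1 wild-type library (adjusted p = 0.0772 and 0.0798).

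Of 16 measured glucuronosyl and sulfotransferases, which act after P450 enzymes in the removal of foreign compounds, 2 were higher and 3 lower. This stood beside 23.3% of all genes tested higher and 21.5% lower. Ugt1a7c, Ugt1a6b and Sult1a1 fell by 2.23 ± 0.29, 2.18 ± 0.50 and 2.11 ± 0.33 (log2, SE, limma adjusted p = 0.000162, 0.00495 and 0.000549), and Ugt1a6a was higher by 1.04 ± 0.23 (limma adjusted p = 0.00402), and by 0.73 against wild-type replicate 1 alone. The Ugt1a genes share their last exons, so how reads were divided between them is uncertain. Without wild-type replicate 3, knockout replicate 1 or knockout replicate 2 a single gene was called higher, and without wild-type replicate 2 5 genes were called lower.

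**Figure D5:**
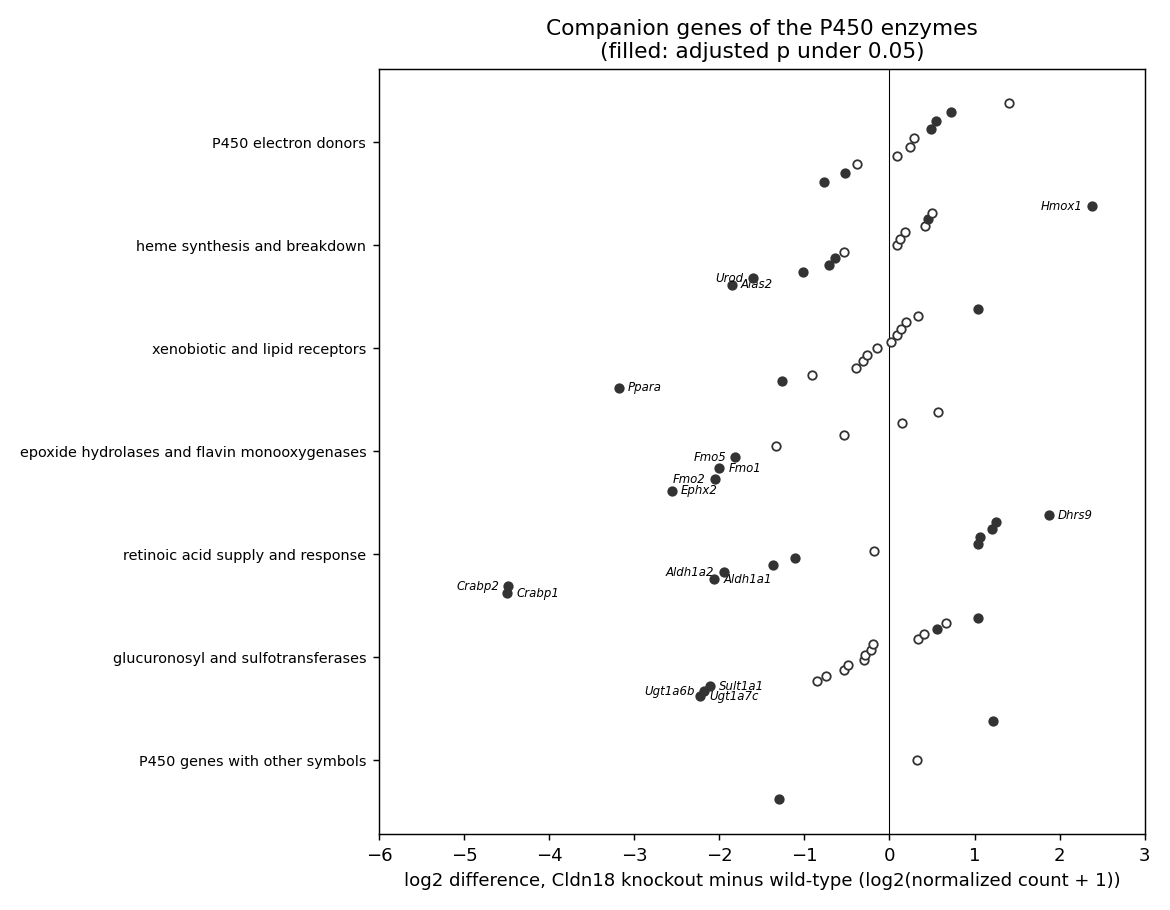
Log2 difference (Cldn18 knockout minus wild-type, log2(normalized count + 1)) of each measured gene of 7 lists of P450 companions. Filled points have an adjusted p under 0.05, and names mark those beyond 1.5 in size, with Hmox1 highest at 2.38 and Crabp1 lowest at -4.49.

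P450 enzymes that carry other symbols were followed beside the members. Cyp51, the sterol demethylase of cholesterol synthesis, had 6733, 6418 and 7488 normalized counts in knockout libraries, against 3019, 3038 and 2810.1 in wild-type libraries. The groups did not overlap (log2 difference 1.22 ± 0.13 SE, limma adjusted p = 4.63e-05). Tbxas1, thromboxane synthase, had 75.6, 73.1 and 79.8 in knockout libraries, against 231, 122 and 236 in wild-type libraries, without overlap (log2 difference -1.30 ± 0.31 SE, limma adjusted p = 0.00602). Ptgis, prostacyclin synthase, overlapped between groups. Of 8 P450 pseudogenes, 2 passed the filter and 0 were called by limma.

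The deleted gene, Cldn18, had 13035, 16798 and 15818 normalized counts in knockout libraries, against 30498, 21210.1 and 23241 in wild-type libraries. The groups did not overlap, but reads remained in all knockout libraries, and the log2 difference of -0.71 had an adjusted p of 0.0134 (limma), which was 0.0896 without knockout replicate 1. The sources used here do not say which exons the deletion removes, and gene-level counts check the labels only in part.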

How the data were processed

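RNA from the laser-captured neck region was measured in 3 Cldn18 knockout and 3 wild-type libraries. The authors deposited normalized counts per gene, a signal scaled between libraries, and a comparison table with fold ratios and p-values. STAR, featureCounts and DESeq with mm10 are named, per the submitters' processing notes. The sources used here give no roles, versions or strandedness, and reads from overlapping genes of opposite strands may be mixed.

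Each library's deposited values were whole multiples of 1 number for 100% of values (tolerance 0.05 reads), which gave the reads. Because the table holds normalized values, log2(normalized count + 1) was fitted with limma 3.58.1 (R 4.3.3, trend, two-sided) over the 17432 genes that reached 10 in 3 or more libraries, and p-values were adjusted by Benjamini-Hochberg (threshold 0.05). On the recovered reads, edgeR 4.0.16 called 46.2% of genes, and DESeq2 1.42.0 was run too. The authors' deposited adjusted p-values called 22.7%. All 95 members matched GENCODE M21 models, and start windows are from RefSeq. The script was tested on simulated data. The members and gene lists were chosen with earlier results of these data known. Named are all called members, members with a group mean of at least 100, those at the edge of the filter, Cldn18, and up to 4 called genes of each companion list by size of difference. Other genes were named after their values were seen. 1 gene of the retinoic acid list is not reported here.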

Additional observations from a re-analysis of the deposited data

How the results depend on the processing

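Over 19 alternatives the members called higher numbered 3 to 6 and those called lower 6 to 10, against 6 and 9. Leaving out 1 library at a time gave 3 to 6 higher and 8 to 9 lower. Cyp20a1, Cyp2c66, Cyp2d26, Cyp2j6, Cyp2s1, Cyp2u1 and Cyp4f13 kept direction and call in each alternative that tested them, and no called member reversed. Cyp4f39 lost its call in 11 alternatives (adjusted p up to 0.189), Cyp39a1 in 10 (up to 0.206) and Cyp2c44 in 6. Cyp4v3 was also lost under quantile normalization (0.0511), and Cyp2d22 (0.0372) and Cyp2r1 (0.0488) were called without a mean trend. Same-numbered libraries did not deviate together (correlations -0.00366, 0.0214 and -0.173), and with a replicate block 5 members were higher and 8 lower.

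Reversals were in 10 members without a call, and the cause was not tested. Quantile normalization, under which the median log2 difference was 0.07 over the members and 0.10 over all genes, against -0.45 and -0.02, gave Cyp26b1 0.091, Cyp27b1 0.51, Cyp2c55 0.40, Cyp2j9 0.54, Cyp2r1 0.02, Cyp4f17 0.074, Cyp4x1 0.34 and Cyp7b1 0.16. Array weights gave Cyp27b1 0.11 and Cyp2j9 0.067. Fitted with edgeR, Cyp2j9 was 0.027 and Cyp4x1 0.08. Cyp4x1 was 0.037 with a pseudocount of 5 and 0.11 in the authors' deposited table. Without wild-type replicates 2 and 3, Cyp2c68 was -0.22, Cyp2e1 -0.40 and Cyp4x1 0.73. Leaving out 1 library at a time gave ranges of Cyp27b1 -0.168 to 0.107, Cyp2c68 -0.203 to 1.837, Cyp2e1 -0.104 to 0.364, Cyp2j9 -0.208 to 0.187 and Cyp4x1 -0.919 to 1.037. All 10 had under 100 normalized counts in every library.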
